A study of Homo sapiens with 8 samples.

Results

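Proteoglycans are proteins that carry long sulfated sugar chains, and 10 of their genes are described here across a human pluripotent cell line and the 3 germ layers made from it. They are the syndecans SDC1, SDC2 and SDC4, the glypicans GPC3 and GPC4, the basement membrane protein HSPG2 (perlecan), the hyaluronan-binding VCAN (versican), and the small leucine-rich LUM (lumican), DCN (decorin) and BGN (biglycan). The members were chosen by gene name: rows of the count table of the combined assembly that carry the name and are named for the gene in that assembly. All 10 were found among 20195 named genes, with 57 of the 96614 assembled transcripts. Another 4 transcripts listed under HSPG2 or VCAN lie wholly inside an intron and were kept apart.

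All cells came from H1, a widely used human embryonic stem line, so the groups are cultures of 1 cell line. The hPSC group was undifferentiated and kept in mTeSR1 on Matrigel. Ectoderm cells were grown in DMEM/F12 with 15% KOSR (a serum replacement) and 2 µM each of 3 inhibitors, namely A83-01, PNU-74654 and Dorsomorphin. Endoderm cells had RPMI with 0.5% FBS, WNT3A and Activin A at 100 ng/ml. Mesoderm cells had DMEM/F12 with 0.5% FBS, VEGF and BMP4 at 100 ng/ml and bFGF at 10 ng/ml, and Activin A at 100 ng/ml during the opening day. The layers were collected after 5 days. Polyadenylated RNA was read on a PacBio Sequel II, a long-read sequencer, in 2 repeats a group.

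Syndecans cross the cell membrane and glypicans are held to it by a lipid anchor, and both carry mainly heparan sulfate, which binds growth factors such as FGFs, WNTs and BMPs and can present them to their receptors or hold them back. Perlecan carries heparan sulfate in basement membranes. Versican carries chondroitin sulfate and binds hyaluronan, and lumican, decorin and biglycan bind collagen fibrils in connective tissue.

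Splice joins and exons are shown first because the forms of VCAN, GPC3 and SDC4 are told apart by them. VCAN (chromosome 5, 83471390 to 83582303, plus strand, GRCh38) has 2 large exons that code for the stretches to which chondroitin sulfate is attached, GAG-alpha (exon 7, 2961 bases, 83519349 to 83522309) and GAG-beta (exon 8, 5262 bases, 83537007 to 83542268). The V0 form holds both, V1 holds GAG-beta, V2 holds GAG-alpha and V3 holds neither. The 40 bases across each join, from the GENCODE 29 transcripts on GRCh38 and 5′ to 3′, have the upstream exon in lower case and the downstream exon in capitals. The V1 join and the second V0 join enter the same GAG-beta sequence from different exons. The first V0 join is shared by any form in which GAG-alpha follows exon 6, such as V2.
V1, exon 6 to GAG-beta: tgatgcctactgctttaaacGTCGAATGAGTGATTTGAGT
V0, exon 6 to GAG-alpha: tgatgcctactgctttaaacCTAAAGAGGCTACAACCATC
V0, GAG-alpha to GAG-beta: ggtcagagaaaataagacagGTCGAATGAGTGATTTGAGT

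The less abundant GPC3 form holds 1 exon more than the main form (69 bases, chromosome X, 133704205 to 133704273, minus strand). The shorter SDC4 form lacks a coding exon (139 bases, chromosome 20, 45335782 to 45335920, minus strand), whose length is not a multiple of 3. In both lines the exon is in capitals and the 10 bases of the exons on each side are in lower case.
GPC3 extra exon: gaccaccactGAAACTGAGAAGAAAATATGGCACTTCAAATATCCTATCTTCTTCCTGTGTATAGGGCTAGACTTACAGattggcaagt
SDC4 exon absent from the shorter form: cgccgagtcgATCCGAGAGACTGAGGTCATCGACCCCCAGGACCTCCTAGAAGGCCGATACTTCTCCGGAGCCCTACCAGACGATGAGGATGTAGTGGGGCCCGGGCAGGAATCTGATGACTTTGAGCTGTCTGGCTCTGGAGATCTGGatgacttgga

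The libraries held from 503840 to 1180888 counts, and both ectoderm libraries were the deepest. Levels are normalized CPM, that is, CPM computed on library totals scaled by edgeR's TMM factors (0.726 to 1.27). A count of 0 allows up to 3 counts, which came to between 2.01 and 7.05 normalized CPM by library and covers counting error only. Ectoderm reads belonged to assembled transcripts of 4406 and 4650 nt on average, those of mesoderm to 3765 and 3840 nt, and those of hPSC and endoderm to 2975 to 3298 nt. Marker lists were checked against the labels by their summed normalized CPM. Pluripotency genes summed to 4187 and 4924 in hPSC, 2729 and 2480 in endoderm, 1202 and 1527 in ectoderm and 357 and 365 in mesoderm. Definitive endoderm genes summed to 2936 and 3289 in endoderm and to at most 13.6 elsewhere. Neural ectoderm genes summed to 824 and 637 in ectoderm, and to 545 and 574 in endoderm, where OTX2 alone made up 532 and 560 while LHX5, DLK1, LHX2 and ZIC1 were at 0. In mesoderm the mesoderm list summed to 969 and 1059, carried by HAND1, TBX3 and BMP4. On the same list TBXT, an early mesoderm factor, had 1 and 0 counts there, MIXL1 and FOXF1 were at 0, and KDR, a VEGF receptor, fell from 104 and 92.6 normalized CPM in hPSC to 1.70 and 1.78. The amnion and trophoblast list, which shares HAND1 with the mesoderm list, summed to 6513 and 7113 in mesoderm and to at most 148 elsewhere.

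Of the 10 genes, 8 passed the filter on low counts, and DCN and BGN did not. LUM passed it through its mesoderm counts alone, so its calls in the comparisons of mesoderm are no separate support. It is still counted as higher in mesoderm in each such tally below. Tests were edgeR's quasi-likelihood test over 10847 genes with Benjamini-Hochberg adjustment, called at an adjusted p of 0.05. The labels do not say that the repeats were separate cultures, so p-values measure only the spread between these samples, which may be technical. Against hPSC, 3 of the 8 tested genes changed in ectoderm, where 48.6% of all tested genes did; 2 rose (23.8% of all) and 1 fell (24.8%). In endoderm 5 changed, beside 27.1% of all, with 2 higher (13.4%) and 3 lower (13.7%). In mesoderm 5 changed, beside 35.2%, with 4 higher (17%) and 1 lower (18.2%). The 4 were SDC4, GPC3, HSPG2 and LUM. All 3 comparisons share the hPSC libraries. The members' median log2 fold changes were 0.05, 0.33 and 0.96 in ectoderm, endoderm and mesoderm, and those of all tested genes were −0.01, −0.13 and 0.01. LUM, without a count in hPSC or ectoderm, entered the ectoderm median as 0. It entered the endoderm median as 4.37, on 3 counts against 0, and the mesoderm median as 11.6. Without LUM the middle values of the tested members were 0.11 (SDC1) in ectoderm, 0.04 (VCAN) in endoderm and 0.28 (SDC2) in mesoderm. The count in endoderm was 3 without endoderm repeat 1 and also without repeat 2, and the count in mesoderm was 8 without hPSC repeat 2. Between layers, 7 of the 8 differed between ectoderm and endoderm (63.1% of all tested genes), 3 of them higher in ectoderm (33.1%) and 4 lower (29.9%). The LUM call among these 4 rests on 0 against 3 counts, which a count of 0 allows. Ectoderm and mesoderm differed in 5 (35.5%), with 2 higher in ectoderm (18.1%) and 3 lower (17.3%). The 3 lower in ectoderm were SDC4, HSPG2 and LUM. Endoderm and mesoderm differed in 5 (47.1%), with 2 higher in endoderm (23.2%) and 3 lower (23.9%). The 3 lower in endoderm were SDC2, GPC3 and LUM. Without endoderm repeat 1 the count between ectoderm and endoderm was 4, and without either mesoderm repeat the count between ectoderm and mesoderm was 3. In bulk RNA, fewer cells of a type and less RNA per cell cannot be told apart.

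**Figure D1:**
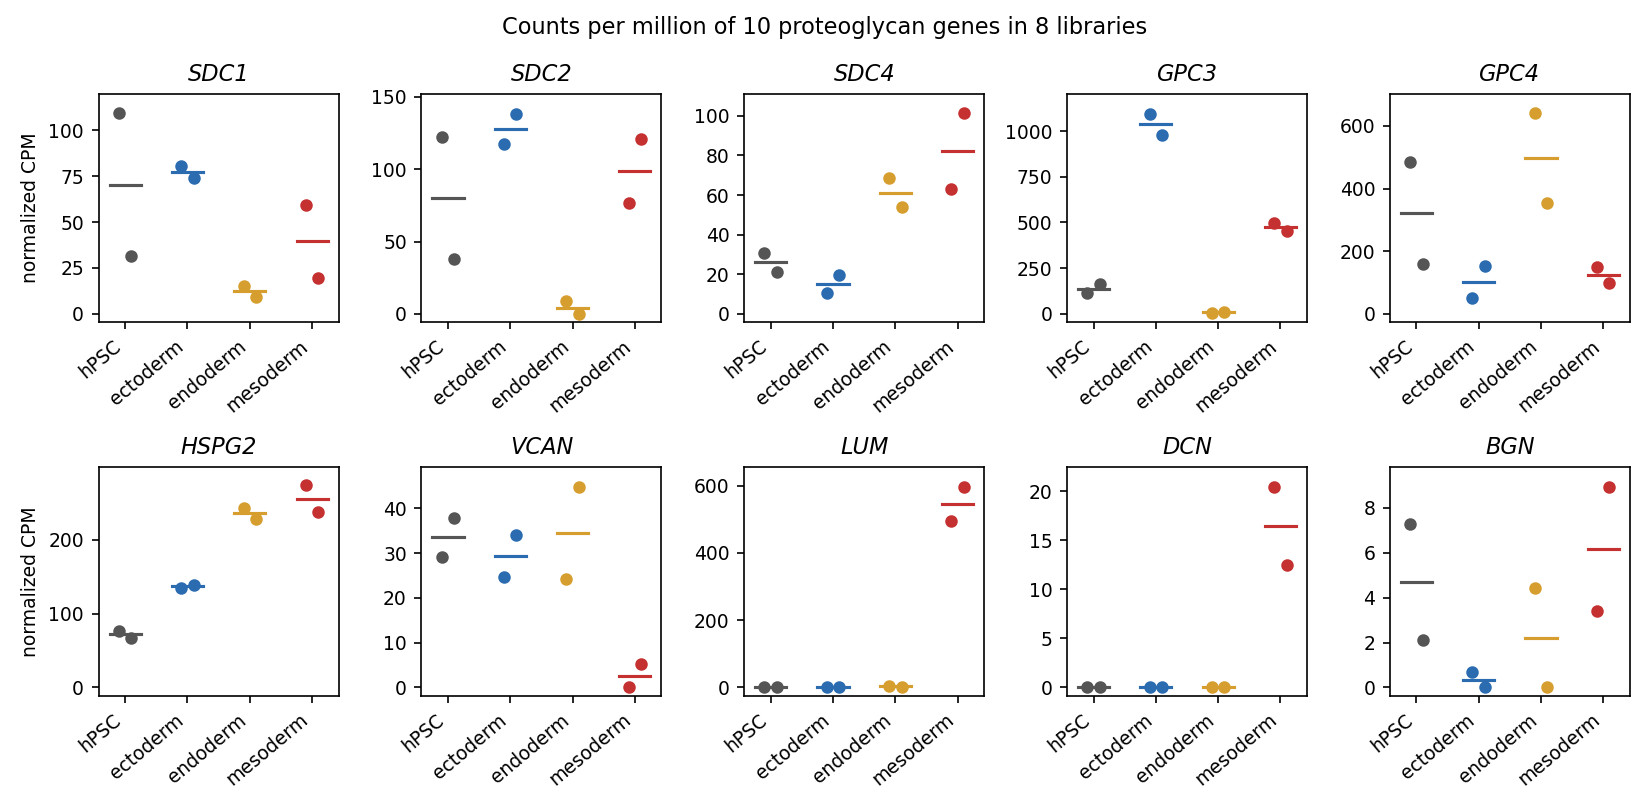
Normalized CPM of each of the 10 genes by group, on linear axes that differ between panels. Points are the 2 libraries of a group and lines are their mean. LUM is high in mesoderm, and DCN has reads in mesoderm alone, at a low level (12 and 7 counts). GPC3 is high in ectoderm and near 0 in endoderm, and the hPSC points of SDC1, SDC2 and GPC4 lie far apart.

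Among the syndecans, SDC1 and SDC2 fell in endoderm, while SDC4 rose in mesoderm. SDC1 lies on chromosome 2 at 20200795 to 20225433 (minus strand), SDC2 on chromosome 8 and SDC4 on chromosome 20 at 45325285 to 45348424 (minus strand). SDC1 is the syndecan of epithelia, and its level was 109 and 31.6 normalized CPM in hPSC, 80.3 and 73.9 in the ectoderm libraries, 15.5 and 9.40 in endoderm and 59.5 and 19.6 in mesoderm. Both endoderm libraries lie below every other library, and the hPSC repeats differ more from each other than hPSC does from ectoderm. SDC1 fell in endoderm by 2.50 ± 0.66 on the log2 scale (SE, edgeR adjusted p = 0.0106). That call was lost without hPSC repeat 1 (−1.33, edgeR adjusted p = 0.111), without endoderm repeat 1 (−2.86, adjusted p = 0.0868) and without endoderm repeat 2 (−2.13, adjusted p = 0.150), and the value was −3.11 without hPSC repeat 2. The ectoderm level of SDC1 was higher than the endoderm level by 2.61 ± 0.62 (edgeR adjusted p = 0.00199), or 3.36 with library totals in place of TMM scaling. Against hPSC, its log2 value was 0.11 ± 0.46 in ectoderm (edgeR adjusted p = 0.866) and −0.84 ± 0.52 in mesoderm (adjusted p = 0.220). These were called in opposite leave-outs, ectoderm at 1.26 without hPSC repeat 1 and mesoderm at −1.46 without hPSC repeat 2. Its order from ectoderm through hPSC and mesoderm to endoderm holds no neighbouring pair that differed in the test.

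SDC2, a syndecan of mesenchymal cells and neurons, had 122 and 37.9 normalized CPM in hPSC, 117 and 138 in the ectoderm libraries and 76.5 and 121 in mesoderm. In endoderm it had 4 counts in 1 library and 0 in the other, or 8.83 and 0 normalized CPM. Endoderm stands apart from the other groups, which overlap each other. SDC2 fell in endoderm by 4.10 ± 0.77 on the log2 scale (edgeR adjusted p = 0.00120). The value was −3.02 without hPSC repeat 1, −4.69 without hPSC repeat 2 and −3.11 without endoderm repeat 2. Without endoderm repeat 1 the remaining endoderm library is at 0 and gives no fold. The log2 value against hPSC was 0.65 ± 0.45 in ectoderm (edgeR adjusted p = 0.241) and 0.28 ± 0.47 in mesoderm (adjusted p = 0.671). Without hPSC repeat 1 both were called, at 1.72 and 1.35. Between layers, the log2 difference was 4.76 ± 0.72 for ectoderm minus endoderm (3.87 without endoderm repeat 2, 5.49 with library totals in place of TMM scaling). For endoderm minus mesoderm it was −4.39 ± 0.76 (−3.43 without endoderm repeat 2). Both were called by edgeR (adjusted p = 5.12e-05 and 0.000297).

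SDC4, a broadly expressed syndecan found at focal adhesions, had 30.9 and 21.1 normalized CPM in hPSC, 10.7 and 19.5 in the ectoderm libraries, 68.4 and 54.1 in endoderm and 62.9 and 101 in mesoderm. The endoderm and mesoderm libraries lie above all hPSC and ectoderm libraries. SDC4 rose in mesoderm by 1.64 ± 0.41 on the log2 scale (edgeR adjusted p = 0.00628). Without mesoderm repeat 2 that value was 1.32 (edgeR adjusted p = 0.0853). The rise in endoderm, 1.22 ± 0.43, had an adjusted p of 0.0473 in the edgeR fit. Leaving out any library other than hPSC repeat 1 ended that call, as did DESeq2 (adjusted p = 0.133), upper-quartile scaling (edgeR adjusted p = 0.0724), library totals (adjusted p = 0.174) and the replicate block (adjusted p = 0.0520). The ectoderm value against hPSC was −0.81 ± 0.46 (edgeR adjusted p = 0.150). SDC4 was lower in ectoderm than in the other layers, with a log2 difference of −2.03 ± 0.41 against endoderm and −2.45 ± 0.39 against mesoderm (edgeR adjusted p = 0.000548 and 0.000197). Both calls held in every alternative run, the former at −1.28 with library totals.

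The glypicans differed from each other: GPC3 rose in ectoderm and mesoderm and fell in endoderm, and GPC4 had its highest mean in endoderm. Their genes are neighbours on the X chromosome, both on the minus strand, with GPC4 at 133300103 to 133415489 and GPC3 at 133535724 to 133985594, 120.2 kb apart. GPC3, whose loss causes the overgrowth syndrome of Simpson, Golabi and Behmel, had 113 and 162 normalized CPM in hPSC and 1093 and 979 in ectoderm. It had 500 and 452 in mesoderm and 4.42 and 11.8 in endoderm, the latter from 2 and 5 counts. No group overlaps another.

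GPC3 rose by 2.92 ± 0.33 on the log2 scale in ectoderm (edgeR adjusted p = 1.17e-05) and by 1.79 ± 0.32 in mesoderm (adjusted p = 0.000617). In endoderm it fell by 4.07 ± 0.49 (edgeR adjusted p = 2.41e-05), with −3.45 without endoderm repeat 1 and −4.81 without repeat 2. These 3 calls held in every alternative run, and the ectoderm value was 3.57 with the trend of fold change with transcript length removed. The ectoderm level was above the mesoderm level by 1.12 ± 0.30 (edgeR adjusted p = 0.00994), a call lost without mesoderm repeat 1 (1.26, adjusted p = 0.0522) or repeat 2 (1.12, adjusted p = 0.0688). Ectoderm minus endoderm was 6.99 ± 0.46 on the log2 scale (7.86 without endoderm repeat 2, 7.63 with the length trend removed, 7.74 with library totals). Endoderm minus mesoderm was −5.87 ± 0.46 (−6.67 without endoderm repeat 2).

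GPC4, a glypican that is abundant in pluripotent cells, had 484 and 158 normalized CPM in hPSC, 49.5 and 154 in the ectoderm libraries, 640 and 353 in endoderm and 151 and 97.9 in mesoderm. Repeats differed by 1.60 on the log2 scale in hPSC and by 1.59 in ectoderm, where the difference exceeded that of 99.8% of all tested genes. The ectoderm and mesoderm libraries all lie below both hPSC libraries, the nearest by little. GPC4 fell in ectoderm by 1.67 ± 0.53 on the log2 scale (edgeR adjusted p = 0.0163). The call ended without hPSC repeat 1 (−0.68, adjusted p = 0.124), without ectoderm repeat 1 (−0.96, adjusted p = 0.238), with DESeq2 (adjusted p = 0.126) and with library totals in place of TMM scaling (adjusted p = 0.0925). The value was −2.57 without ectoderm repeat 2. In mesoderm the log2 value was −1.37 ± 0.54 (edgeR adjusted p = 0.0584), called at −1.39 without the filter on low counts, at −1.61 with the length trend removed and at −1.96 without hPSC repeat 2. In endoderm it was 0.62 ± 0.51 (edgeR adjusted p = 0.399), called at 1.65 without hPSC repeat 1.

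Between layers, GPC4 was higher in endoderm, with ectoderm minus endoderm at −2.29 ± 0.53 on the log2 scale (edgeR adjusted p = 0.00165) and endoderm minus mesoderm at 1.99 ± 0.54 (adjusted p = 0.00718). Without endoderm repeat 1 these became −1.74 and 1.51, with edgeR adjusted p of 0.0534 and 0.115. The former was −1.62 without ectoderm repeat 1, −3.23 without ectoderm repeat 2, −3.00 with the length trend removed and −1.54 with library totals, all still called. The latter was lost without mesoderm repeat 2 (1.72, edgeR adjusted p = 0.111), with DESeq2 (adjusted p = 0.0501) and with library totals (1.44, adjusted p = 0.0734).

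**Figure D2:**
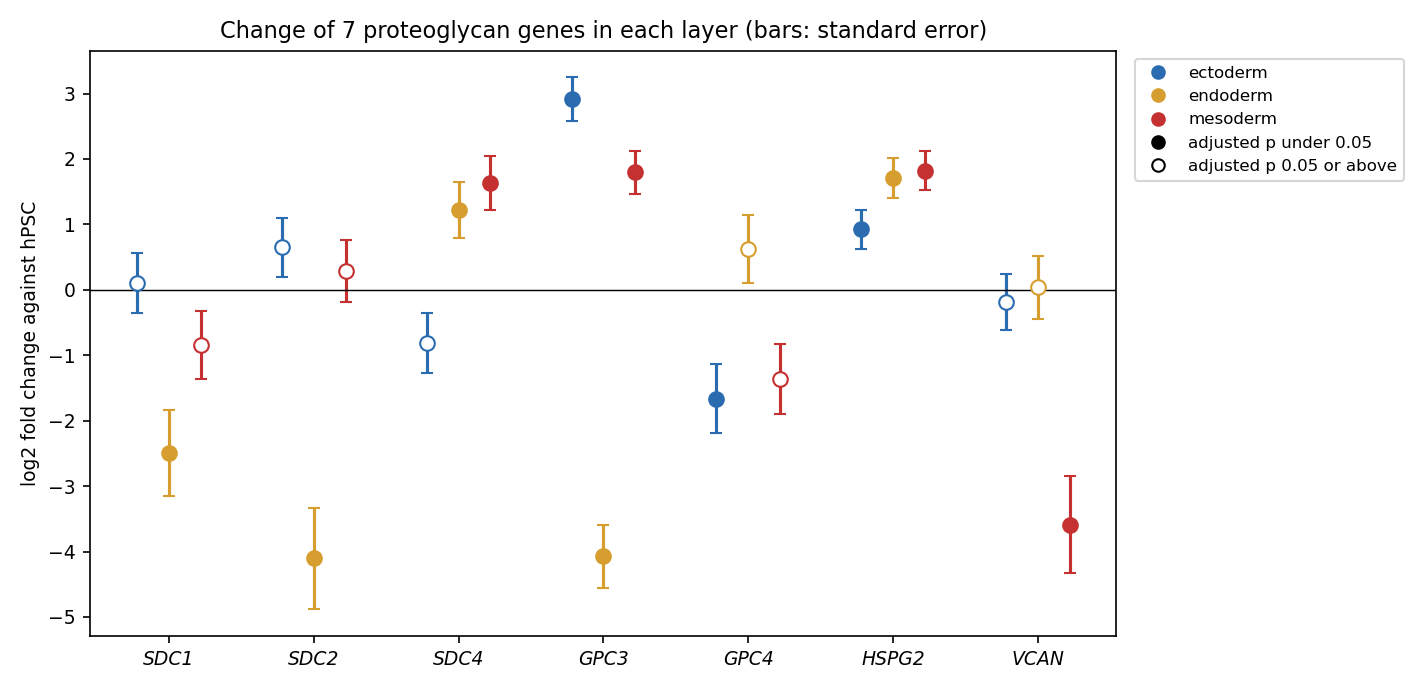
Log2 fold change against hPSC of the 7 tested genes with reads in hPSC (vertical axis), by gene and layer. Bars are standard errors, and filled points have an edgeR adjusted p under 0.05. GPC3 goes up by 2.92 in ectoderm and down by 4.07 in endoderm, HSPG2 is above 0 in each layer (in ectoderm not after removal of the length trend), and the VCAN point in mesoderm rests on 3 counts.

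HSPG2 was higher in each layer than in hPSC, in ectoderm only as long as the trend of fold change with transcript length was not removed. It had 76.4 and 67.4 normalized CPM in hPSC, 135 and 139 in the ectoderm libraries, 243 and 228 in endoderm and 274 and 237 in mesoderm. Repeats lie close together, and the endoderm and mesoderm libraries overlap. HSPG2 rose by 0.93 ± 0.30 on the log2 scale in ectoderm (edgeR adjusted p = 0.0183), by 1.71 ± 0.31 in endoderm (adjusted p = 0.000804) and by 1.82 ± 0.30 in mesoderm (adjusted p = 0.000321). The endoderm and mesoderm calls held in every alternative run. The ectoderm value became −0.05 (edgeR adjusted p = 0.910) with that trend removed. HSPG2 transcripts are long, and the ectoderm libraries had the longest transcripts, as given above.

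Ectoderm had a lower HSPG2 level than endoderm (−0.78 ± 0.28 on the log2 scale) and than mesoderm (−0.90 ± 0.28), with edgeR adjusted p of 0.0242 and 0.0209. The first was lost with upper-quartile scaling (−0.54, adjusted p = 0.0925), without the filter on low counts (−0.63, adjusted p = 0.134), with library totals (−0.02, adjusted p = 0.944) and without any 1 of the ectoderm or endoderm libraries (−0.67 to −0.78), and was −1.96 with the length trend removed. The second was lost with DESeq2 (adjusted p = 0.0527), without the filter (−0.71, adjusted p = 0.119) and without any 1 of the ectoderm or mesoderm libraries, where edgeR adjusted p ran from 0.0790 to 0.173.

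No assembled HSPG2 transcript ran the length of the gene (chromosome 1, 21822240 to 21937307, minus strand). The reference transcript has 97 exons and 14327 nt. Of the 36 transcripts named for the gene, the one with the most exons had 62 and 12548 nt. 13 of the 36 end within 50 bases of the annotated 3′ end and held 846 reads, 89.2% of the gene's reads, while 4 start within 50 bases of its 5′ end and held 22, or 2.32%. None does both. The form with 62 exons held 19.8% and 15.8% of the gene's reads in the ectoderm libraries, 11.8% and 16.5% in mesoderm, 9.09% and 7.22% in endoderm and 14.3% and 3.12% in hPSC, the last from 6 and 1 reads. The mesoderm shares overlap those of ectoderm and of hPSC, and the endoderm shares lie within the range of hPSC. The other 5 forms with at least 10% of the reads in a group have 53, 47, 45, 43 and 37 exons and end at the 3′ end too. By group, transcripts at the 3′ end held 92.5% of HSPG2 reads in ectoderm, 90.1% in mesoderm, 85.0% in endoderm and 81.1% in hPSC. HSPG2 counts are therefore mostly counts of its 3′ part. The choice among its 6 tested transcripts did not differ from hPSC by the test (diffSpliceDGE adjusted p = 0.636 in ectoderm, 0.884 in endoderm and 0.897 in mesoderm).

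**Figure D3:**
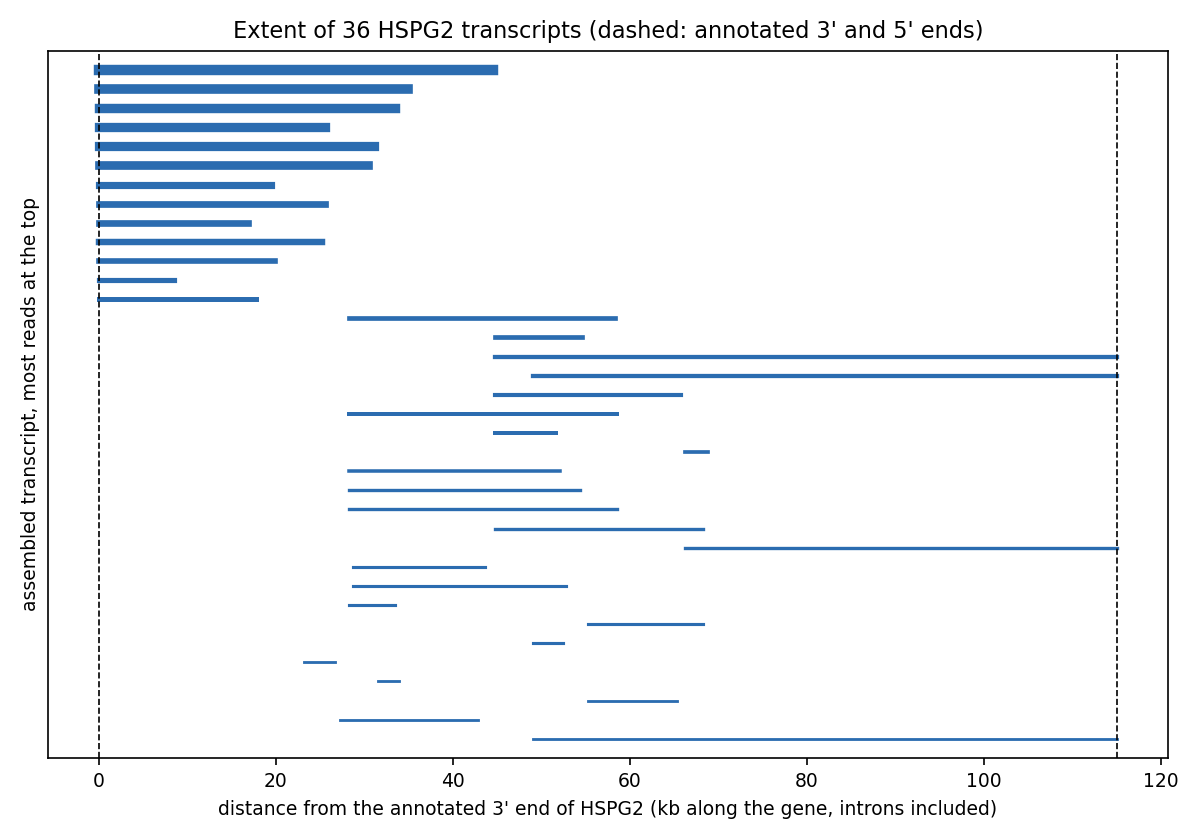
Extent of the 36 HSPG2 transcripts along the gene, as distance in kb from the annotated 3′ end with introns included, ordered by reads; thicker lines have more reads. The 13 transcripts with the most reads end at the 3′ end, the 4 that reach the 5′ end have few reads, and none spans both dashed lines.

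VCAN was lower in mesoderm than in the other groups. It had 29.1 and 37.9 normalized CPM in hPSC, 24.8 and 34.1 in the ectoderm libraries and 24.3 and 44.7 in endoderm, which all overlap. In mesoderm 1 library had 0 counts and the other 3, or 5.34 normalized CPM. VCAN fell in mesoderm (edgeR adjusted p = 0.00180), and the pooled level in hPSC was 12.7 times that in mesoderm (95% exact conditional interval 4.0 to 64.8). The ratio to mesoderm was 11.1 (3.67 to 55.0) for ectoderm and 13.1 (4.07 to 67.1) for endoderm, with edgeR adjusted p of 0.00165 and 0.00128. These intervals cover counting error only. The calls held in every alternative run; without mesoderm repeat 1 the log2 value against hPSC was −2.53 (edgeR adjusted p = 0.0343), and those of ectoderm and endoderm minus mesoderm were 2.48 and 2.64. With the length trend removed the last 2 were 2.80 and 4.33. Without mesoderm repeat 2 the remaining library is at 0 and gives no fold.

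VCAN in ectoderm (−0.19 ± 0.43 on the log2 scale, edgeR adjusted p = 0.742) and endoderm (0.04 ± 0.48, adjusted p = 0.965) did not differ from hPSC by the test. When the length trend was removed the ectoderm value was −1.24 (edgeR adjusted p = 0.0320), and VCAN was then lower in ectoderm than in endoderm (−1.54, adjusted p = 0.00798). VCAN transcripts are long, with a mean of between 9177 and 10069 nt behind the reads of the hPSC, ectoderm and endoderm libraries.

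Of 146 VCAN reads, 110 came from forms that span the alternative exons, and these forms were V0 and V1, which both hold GAG-beta. No V2 or V3 transcript was assembled, so their reads could not be counted. V0 had 4 and 2 reads in hPSC, 6 and 13 in the ectoderm libraries and 2 and 4 in endoderm. V1 had 11 and 9, 20 and 18, and 9 and 12 in the same groups, and neither form had a read in mesoderm. V1 is the larger form in all 6 libraries, and the groups overlap in the V0 share.

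The V0 share was 22.4% ± 6.0 in hPSC, 32.5% ± 13.3 in ectoderm and 21.6% ± 4.82 in endoderm (SD, n = 2 libraries). Permuting the 6 libraries among the groups in all 15 distinct ways gave an exact p of 0.600 for the F statistic, where this design allows no p below 0.0667. Pooled over the 6 libraries the V0 share was 28.2% (exact 95% interval 20.0 to 37.6). That interval covers counting error only, and the shares of single libraries ran from 18.2% to 41.9%.

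The remaining VCAN reads came from partial forms. A form that holds GAG-alpha and ends in the region after it had 17 reads. Of these, 8 and 5 were in the ectoderm libraries, 0 and 3 in hPSC and 0 and 1 in endoderm. They are not part of the V0 share, although they hold GAG-alpha. This form ends before GAG-beta, so whether its reads belong to V0 or V2 cannot be told. Another form that ends soon after exon 6 had 13 reads, 2 of them in mesoderm, and a form that starts after GAG-beta had 6. With all forms in the denominator, V0 and V1 together held 93.8% and 61.1% of the reads in hPSC, 70.3% and 73.8% in ectoderm, and 100% and 84.2% in endoderm.

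Which form a read is assigned to also depended on the assembly. When counted on the assembly of each group, all 11 and 19 endoderm reads were V1, ectoderm had 7 and 16 V0 reads of 27 and 33, and no spanning form was assembled in hPSC. The V0 reads of hPSC and endoderm rest on the combined assembly alone.

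**Figure D4:**
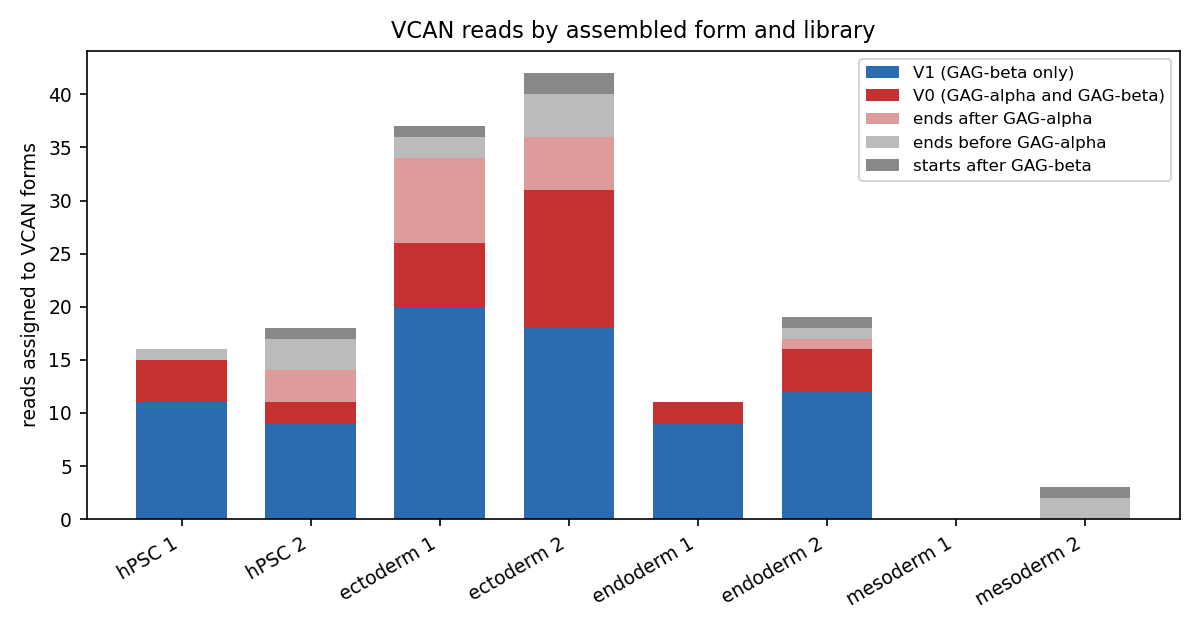
Reads per VCAN form (vertical axis) in each of the 8 libraries, stacked by form. V1 (blue) is larger than V0 (red) in the 6 libraries of hPSC, ectoderm and endoderm, and mesoderm has 0 and 3 reads, none of them V0 or V1.

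LUM and DCN were highest in mesoderm. The genes are neighbours on chromosome 12, both on the minus strand, with LUM at 91102624 to 91111494 and DCN at 91145266 to 91182804, 33.8 kb apart. LUM had 291 and 334 counts in mesoderm (494 and 594 normalized CPM), 2 and 1 in endoderm and 0 in all hPSC and ectoderm libraries. It was at least 86.2-fold higher in mesoderm than in hPSC and at least 223-fold higher than in ectoderm, against a floor of 3 counts per library (edgeR adjusted p = 1.28e-07 and 4.38e-08). The pooled level in mesoderm was 159 times that in endoderm (95% exact conditional interval 54.2 to 773, edgeR adjusted p = 3.24e-07). These p-values rest on the same mesoderm counts that let LUM pass the filter, so they add no separate support. The edgeR call between ectoderm and endoderm (adjusted p = 0.0103) rests on 0 against 3 counts, which is at the floor, and no fold is given.

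DCN had 12 and 7 counts in mesoderm (20.4 and 12.5 normalized CPM) and 0 in the other 6 libraries, and it did not pass the filter. It was at least 2.60-fold higher in mesoderm than in hPSC, at least 6.74-fold higher than in ectoderm and at least 2.33-fold higher than in endoderm. Without the filter it was called higher in mesoderm than in hPSC (edgeR adjusted p = 0.000537). BGN, on the X chromosome at 153494978 to 153509545, was nearly undetected, with 4 and 1 counts in hPSC, 1 and 0 in the ectoderm libraries, 2 and 0 in endoderm and 2 and 5 in mesoderm. These are too few to order the groups.

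Genes of other cell types were high in the mesoderm libraries, where LUM and DCN had their highest levels. The mesenchyme and fibroblast list summed to 4805 and 5257 normalized CPM in mesoderm and to between 330 and 1339 elsewhere, and 4 of its 7 tested genes rose there and 1 fell, where 17% of all tested genes rose and 18.2% fell. COL1A1, a fibrillar collagen, took 2630 and 3345 of that sum, while PRRX1, a mesenchymal transcription factor, had 2 counts in each mesoderm library and 0 elsewhere. All 10 tested genes of the amnion and trophoblast list rose in mesoderm, led by GABRP at 3855 and 4190 normalized CPM. The part of these cell types in the LUM and DCN levels was not tested.

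LUM, DCN, BGN and GPC4 were each assembled as a single transcript that matches the reference, so no choice of form could be measured. The GPC3 form with the extra exon printed above had 3 and 1 of 62 and 77 reads in hPSC, 14 and 15 of 1634 and 1205 in ectoderm and 3 and 3 of 294 and 254 in mesoderm. Its pooled share was 2.88% (exact 95% interval 0.790 to 7.20) in hPSC, 1.02% (0.685 to 1.46) in ectoderm and 1.09% (0.403 to 2.37) in mesoderm, with overlapping intervals. The GPC3 form was named after its values were seen. The SDC4 form without the printed exon had 0 of 17 and 0 of 10 reads in hPSC, 0 of 16 and 2 of 24 in ectoderm, 4 of 31 and 4 of 23 in endoderm and 4 of 37 and 1 of 57 in mesoderm. As shares, endoderm had 12.9% and 17.4% and mesoderm 10.8% and 1.75%, so mesoderm repeat 1 lies near the endoderm libraries. The pooled endoderm share was 14.8% (6.62 to 27.1), and 0 of 27 in hPSC allows a share of up to 12.8% by the exact interval. These pooled intervals, and those of GPC3, cover counting error only.

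SDC2 was assembled in 2 forms that differ in the first exon, which is 519 or 231 nt long; the start codon of the matching reference lies in that exon in the longer form and in the next exon in the shorter one. The shorter form held 14 of 67 and 7 of 18 reads in hPSC (20.9% and 38.9%), 16 of 175 and 9 of 170 in ectoderm (9.14% and 5.29%) and 2 of 45 and 2 of 68 in mesoderm (4.44% and 2.94%). Both hPSC libraries lie above both ectoderm libraries, and these above both mesoderm libraries. Over these 6 libraries the exact permutation p was 0.0667, the smallest that the 15 ways of grouping them allow, so this design cannot pass 0.05. Outside VCAN the permutation was run on this form alone and was not planned, so its p is a description only. Endoderm had 4 SDC2 reads, all of the longer form. The longer form was the only one to pass the filter of the transcript test.

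SDC1 was assembled in 4 forms. One starts at position 20225130 on chromosome 2 (minus strand) with the start codon in its first exon, and held 40 of 75 reads in hPSC, 117 of 211 in ectoderm, 2 of 11 in endoderm and 30 of 46 in mesoderm. Another starts upstream, at 20225433, with the start codon in its second exon, and held 27.5% and 35.2% of the ectoderm reads, 33.3% and 20.0% of the hPSC reads and 34.3% and 9.09% of those in mesoderm, the last being 1 of 11 reads. In endoderm it had 0 of 11 reads, which allows a share of up to 28.5% by the exact interval. A form with an exon of 8719 nt that spans an intron held 3 of the 11 endoderm reads. A form that starts at 20225403 and lacks the exon with the start codon held 6 of the 11 endoderm reads and between 2.17% and 7.11% in the other groups. The choice between the 2 full forms did not differ from hPSC by the test (diffSpliceDGE adjusted p = 0.994 in ectoderm, 0.757 in endoderm and 0.919 in mesoderm). With all 8 libraries, transcript choice could be tested in SDC1 and HSPG2 alone among the members. Of these 6 tests, 0 were called at an adjusted p of 0.05. Of the 2629 genes tested for transcript choice, 5.63%, 5.06% and 7% were called in ectoderm, endoderm and mesoderm.

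Genes whose log2 CPM followed a member most closely over the 8 libraries were named by Pearson's r, as a description with no p, since the libraries share their groups. LUM was followed by LOXL2, a lysyl oxidase that crosslinks collagen (r = 0.996), NIPAL4 (0.994) and CDKN2B (0.992). LUM had 0 counts in hPSC and ectoderm and 2 and 1 in endoderm, so its r values rest on mesoderm against the rest. For GPC3 they were RAD18 (0.996), NUF2 (0.992) and NMD3 (0.991). SDC2 had JAG1, a NOTCH ligand (0.995), PWWP2A (0.994) and EDIL3 (0.990), and SDC1 had RAB6B (0.992), AVL9 (0.987) and PKIA (0.967). Nearest to SDC4 were ZDHHC24 (0.974), ID1, a target of BMP signals (0.970), and CERCAM (0.966). HSPG2 had RHBDF1 (0.985), CACNB3 (0.972) and PPT2-EGFL8 (0.972), VCAN had ALPL (0.972), ACTN3 (0.964) and ENO2 (0.959), and GPC4 had TRAF4 (0.953), NSMF (0.942) and MAP2K3 (0.935).

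The wider pathway was read from 9 lists of 119 genes, of which 106 had a read and 67 were tested. In ectoderm 18 rose and 14 fell (47.8%, beside 48.6% of all tested genes), in endoderm 20 rose and 5 fell (37.3%, beside 27.1%), and in mesoderm 19 rose and 10 fell (43.3%, beside 35.2%). Their median log2 fold changes were 0.27, 0.43 and 0.52. The split moved with the scaling: with library totals 21 rose and 7 fell in ectoderm, 17 and 9 in endoderm, with 22 and 7 in mesoderm, and with upper-quartile scaling 20 rose and 10 fell in ectoderm. With the length trend removed, 14 rose and 15 fell in ectoderm, which turns its balance.

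**Figure D5:**
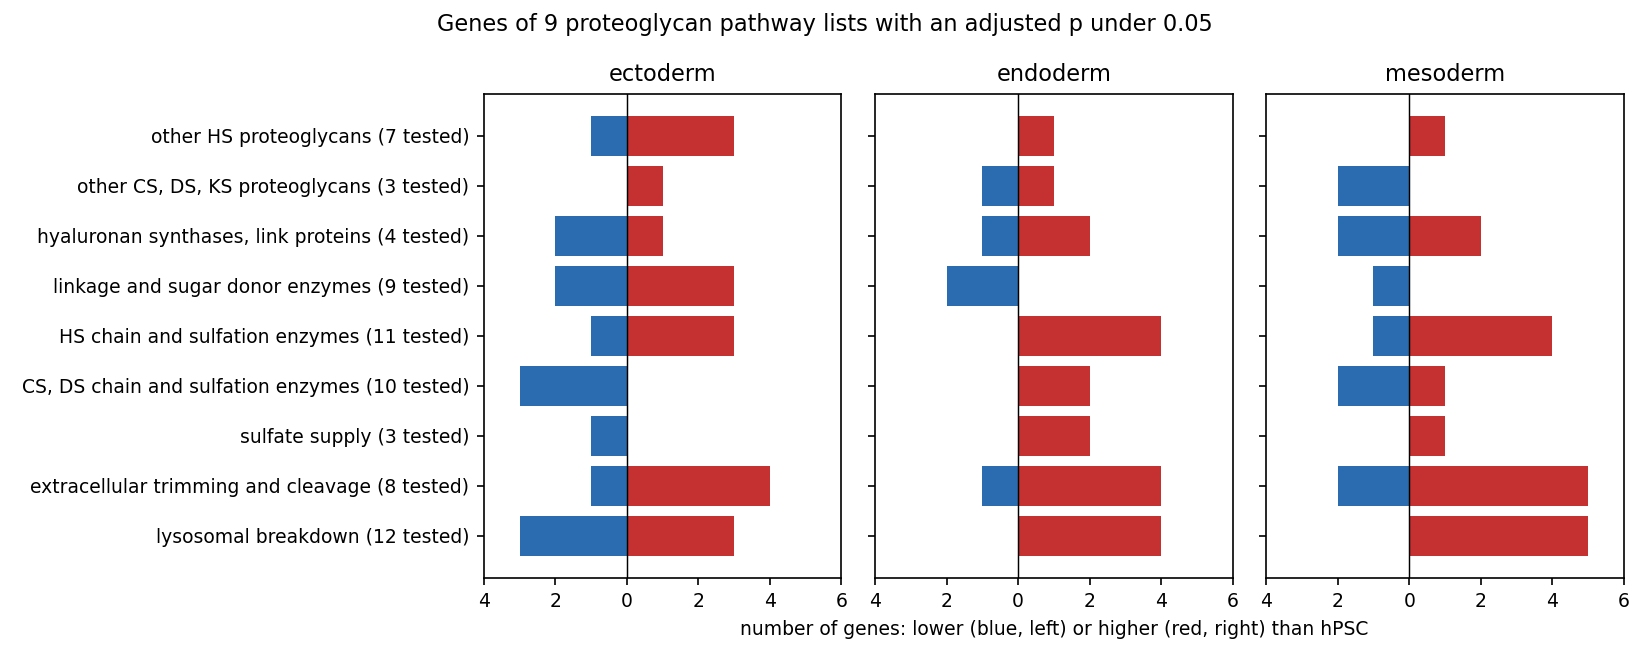
Number of genes with an edgeR adjusted p under 0.05 against hPSC in each of the 9 lists (HS heparan, CS chondroitin, DS dermatan and KS keratan sulfate), higher to the right and lower to the left, by layer. Endoderm has 20 genes to the right and 5 to the left, ectoderm 18 and 14, and mesoderm 19 and 10.

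Among other heparan sulfate proteoglycans, 3 of 7 tested rose and 1 fell in ectoderm, and 1 rose in endoderm and 1 in mesoderm. Called shares were 57.1%, 14.3% and 14.3% in ectoderm, endoderm and mesoderm, beside 48.6%, 27.1% and 35.2% of all tested genes. The gene that fell in ectoderm was GPC5, with 2 counts in each hPSC library, which a count of 0 allows. GPC6, another glypican, had 12.7 and 12.6 normalized CPM in hPSC, 56.9 and 69.0 in the ectoderm libraries and 33.1 and 49.4 in endoderm. SPOCK1 (1.79 ± 0.50) and AGRN (0.80 ± 0.30, edgeR adjusted p = 0.0364) also rose in ectoderm on the log2 scale by edgeR. GPC5 had 3.64 and 4.21 in hPSC and 44.2 and 42.7 in mesoderm. Of 3 tested chondroitin, dermatan and keratan sulfate proteoglycans and relatives, 1 rose in ectoderm, 1 rose and 1 fell in endoderm, and 2 fell in mesoderm. The shares called were 33.3%, 66.7% and 66.7%, beside 48.6%, 27.1% and 35.2% of all tested genes. These 3 genes are too few to set the list apart. PTPRZ1, a chondroitin sulfate receptor phosphatase of neural cells, rose in ectoderm from 54.6 and 27.4 to 188 and 190. In mesoderm PTPRZ1 had no count and was at least 7.68-fold lower than in hPSC, and in endoderm it had 1 count. TSKU, a small leucine-rich relative of LUM, had 49.1 and 21.1 normalized CPM in hPSC and 1382 and 1267 in endoderm, a log2 rise of 5.21 ± 0.40 (edgeR adjusted p = 6.84e-07).

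Hyaluronan synthases and the link proteins that fix proteoglycans such as versican to hyaluronan had 4 tested genes. Of these, 3 were called in ectoderm, 3 in endoderm and 4 in mesoderm, beside 48.6%, 27.1% and 35.2% of all tested genes, and 4 genes are too few to set the list apart. The link protein HAPLN1 had 1 and 0 counts in hPSC and rose to 46.8 and 39.0 normalized CPM in ectoderm, 22.1 and 16.5 in the endoderm libraries and 211 and 267 in mesoderm. HAPLN3 fell in all 3 layers, from 54.6 and 69.5 in hPSC to at most 8.90. HAS2, a hyaluronan synthase, had 0 counts in hPSC and 94.9 and 98.7 normalized CPM in endoderm, at least 15.3-fold higher. HAS3 fell in ectoderm (−2.04 ± 0.55, edgeR adjusted p = 0.00653) and mesoderm (−3.10 ± 0.76, adjusted p = 0.00536) on the log2 scale. In mesoderm, HAPLN1 was at its highest where VCAN had 0 and 3 counts.

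Enzymes that build and sulfate heparan sulfate gave 3 higher and 1 lower of 11 in ectoderm, 4 and 0 in endoderm, with 4 and 1 in mesoderm. Called shares were 36.4%, 36.4% and 45.5% in the same order, beside 48.6%, 27.1% and 35.2% of all tested genes. The gene that fell in ectoderm was HS3ST1, with 1 and 3 counts in hPSC, which a count of 0 allows. The 6-O-sulfotransferase HS6ST2 had 5.46 and 2.11 normalized CPM in hPSC and 65.6 and 90.1 in ectoderm, and the 2-O-sulfotransferase HS2ST1 went from 9.10 and 8.42 to 64.2 and 64.2. EXTL3, which starts the heparan sulfate chain, rose in endoderm (1.26 ± 0.31, edgeR adjusted p = 0.00733) and fell in mesoderm (−2.34 ± 0.36, adjusted p = 0.000157) on the log2 scale. In endoderm HS3ST1 (2.97 ± 0.65) and HS6ST1 (1.37 ± 0.36), in ectoderm EXTL2 (1.24 ± 0.39) and in mesoderm HS6ST2 (2.25 ± 0.68) and HS3ST1 (2.10 ± 0.71) rose by edgeR, on the log2 scale. Those of chondroitin and dermatan sulfate gave 0 higher and 3 lower of 10 in ectoderm, 2 and 0 in endoderm, with 1 and 2 in mesoderm. The shares called, 30%, 20% and 30%, are below those of all tested genes in each layer. CHST15 fell in ectoderm (−1.82 ± 0.56) and rose in mesoderm (1.67 ± 0.42), both called by edgeR. CHPF (−1.35 ± 0.44) fell in ectoderm, and CHSY1 fell in ectoderm (−1.27 ± 0.45) and mesoderm (−1.73 ± 0.56). UST fell in mesoderm (−1.61 ± 0.59, edgeR adjusted p = 0.0435). In endoderm CHPF2 (2.29 ± 0.35) and CHST12 (1.45 ± 0.36) rose.

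Linkage and sugar donor enzymes had 3 higher and 2 lower of 9 in ectoderm, 0 and 2 in endoderm, with 0 and 1 in mesoderm. Called shares were 55.6%, 22.2% and 11.1% in the same order, beside 48.6%, 27.1% and 35.2% of all tested genes. UGP2, which makes UDP-glucose, had 282 and 255 normalized CPM in hPSC and 33.1 and 70.5 in endoderm. B4GALT7 fell in ectoderm (−1.12 ± 0.40, edgeR adjusted p = 0.0291) and endoderm (−1.82 ± 0.52) and XYLT2 in mesoderm (−1.39 ± 0.40). PXYLP1 (1.51 ± 0.33) and FAM20B (1.15 ± 0.44, edgeR adjusted p = 0.0401) rose in ectoderm. In the sulfate supply, 1 of 3 fell in ectoderm, 2 rose in endoderm and 1 rose in mesoderm. The shares called were 33.3%, 66.7% and 33.3%, beside the same shares of all tested genes. These 3 genes are too few to set the list apart. SLC35B2, a transporter of the sulfate donor PAPS, fell in ectoderm (−1.29 ± 0.37) and rose in endoderm (1.12 ± 0.36), as did PAPSS1, which makes PAPS (1.11 ± 0.32), and SLC35B3, a related transporter, rose in mesoderm from 10.9 and 14.7 to 116 and 83.6 normalized CPM.

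Enzymes that trim or cleave proteoglycans outside the cell gave 4 higher and 1 lower of 8 in ectoderm, 4 and 1 in endoderm, with 5 and 2 in mesoderm. Called shares were 62.5%, 62.5% and 87.5% in the same order, beside 48.6%, 27.1% and 35.2% of all tested genes. SULF2, which removes 6-O-sulfate from heparan sulfate, had 16.4 and 14.7 normalized CPM in hPSC, 58.9 and 53.6 in the ectoderm libraries, 287 and 287 in endoderm and 119 and 117 in mesoderm. Its paralog SULF1 had 20.0 and 29.5 in hPSC and 4.42 and 0 in endoderm, where it fell (edgeR adjusted p = 0.00707). The versican-cleaving protease ADAMTS1 had 7.28 and 0 in hPSC and 61.2 and 97.9 in mesoderm. ADAMTS9 had 0 counts in hPSC and 17.0 and 26.7 normalized CPM in mesoderm, at least 3.46-fold higher, and ADAMTS4 was at 0 in mesoderm, at least 5.35-fold lower than in hPSC. ADAM10, a sheddase of syndecans, had 34.6 and 58.9 in hPSC and 395 and 430 in ectoderm. ADAMTS1 also rose in endoderm (3.08 ± 0.75), and the membrane protease MMP14 fell in ectoderm (−2.27 ± 0.49), on the log2 scale by edgeR.

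Lysosomal enzymes that break the chains down gave 3 higher and 3 lower of 12 in ectoderm, 4 and 0 in endoderm, with 5 and 0 in mesoderm. Called shares were 50%, 33.3% and 41.7% in the same order, beside 48.6%, 27.1% and 35.2% of all tested genes. HGSNAT, which acetylates heparan sulfate during its breakdown, had 5.46 and 6.32 normalized CPM in hPSC and 105 and 101 in mesoderm. GLB1, the lysosomal beta-galactosidase, had 146 and 255 in hPSC, 87.6 and 78.8 in the ectoderm libraries and 783 and 763 in mesoderm. HGSNAT (1.69 ± 0.53) and IDS (1.19 ± 0.37) rose in ectoderm, and HYAL3 (2.17 ± 0.48), SGSH (1.77 ± 0.46) and GALNS (1.75 ± 0.38) in endoderm, on the log2 scale by edgeR. In mesoderm SGSH rose by 1.26 ± 0.47 (edgeR adjusted p = 0.0462).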

How the data were processed

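Per the labels, long reads came from a PacBio Sequel II. The submitters' processing notes name minimap2, StringTie and GRCh38; the counter, software versions, annotation release and use of strand are not given in the sources used here. The authors deposited whole raw counts per assembled transcript. For the 2 endoderm columns the listed unit is expected counts, although the deposited values are whole raw counts as in the other columns, and nothing was rounded. All 15 multi-exon member transcripts that match a reference listed in GENCODE 29 have the same introns there on GRCh38.

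A gene's count is the sum over the transcripts named for it in the assembly. Tests used edgeR 4.0.16 (R 4.3.3) with TMM factors, filterByExpr (minimum count 10), a single two-sided quasi-likelihood fit to all 8 libraries and Benjamini-Hochberg adjustment at 0.05. SE is the size of the log2 fold change divided by the square root of F. Transcript choice was tested with diffSpliceDGE. Exact intervals of shares came from scipy 1.17.1, and the VCAN and SDC2 shares were tested by exact permutation of the libraries. Groups come from the sample titles. Alternatives were DESeq2 1.42.0, upper-quartile scaling, no filter, a replicate block, removal of the length trend (a lowess on transcript length), leaving out each library, and all transcripts listed under a gene; library totals without TMM factors were added after the data were seen. Tested on simulated data over 10847 genes, the fit recovered 78.5%, 73% and 72% of genes changed 4-fold for ectoderm, endoderm and mesoderm, and 7.65%, 6.41% and 4% of its calls were false.

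The members and lists were chosen with earlier results of these data known. Named pathway genes are, per list and layer, the largest fitted changes (up to 3) with an adjusted p under 0.05 and 10 CPM or more in each library of the higher group. Their calls were not followed gene by gene through the alternatives. Transcripts were named at 10% or more of a gene's reads in a group with at least 10 reads of that gene; the GPC3 form with the extra exon and the VCAN form that starts after GAG-beta, both below that share, were added after their values were seen.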

Additional observations from a re-analysis of the deposited data

Results flagged for a closer look

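GPC3 changed in opposite directions in the layers, and the layers differed in the test itself. The ectoderm level was above the endoderm level by 6.99 on the log2 scale (edgeR adjusted p = 5.52e-08), with both ectoderm libraries above both hPSC libraries and both endoderm libraries below them. The endoderm level minus the mesoderm level was −5.87 (edgeR adjusted p = 3.24e-07), again with every library on its side of hPSC.

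Of the 4 transcripts kept out of the member counts, the 3 inside HSPG2 introns were above both hPSC libraries in both endoderm libraries, all at few counts. One (chromosome 1, 21928755 to 21934091, a single exon) had 3 counts in each endoderm library, a mean of 6.84 normalized CPM, against 0 and 2 counts in hPSC and 4 and 0 in mesoderm; 3 counts is what a count of 0 allows. The other (21925863 to 21936623, a single exon) had 5 and 4 counts in endoderm, a mean of 10.2 normalized CPM, against 4 and 1 in hPSC. It was higher still in mesoderm, with 4 and 10 counts and a mean of 12.3. The last (21928755 to 21936864, 2 exons) had 2 and 1 counts in endoderm and 0 in hPSC, below what a count of 0 allows. No test of these transcripts was run.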

How the results depend on the processing

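Of 30 member differences called by edgeR, the LUM call between ectoderm and endoderm, on 0 against 3 counts, was not followed further; of the other 29, 19 kept direction and call in all 15 alternatives. When each library was left out, members called ranged from 2 to 4 in ectoderm, 3 to 5 in endoderm and 4 to 8 in mesoderm against hPSC, and from 4 to 7, 3 to 7 and 4 to 7 between ectoderm and endoderm, ectoderm and mesoderm, and endoderm and mesoderm. A group left with 1 library is assumed to vary like the others. The share of VCAN reads in forms with GAG-beta is 100% by definition among V0 and V1, and was 80.5% with all forms in the denominator. HSPG2 in ectoderm was the only called value that turned direction in these alternatives. With the length trend removed they were SDC1 in ectoderm (−0.071), HSPG2 in ectoderm (−0.050) and HSPG2 in endoderm minus mesoderm (0.54). VCAN in ectoderm turned without the filter (0.020), with library totals (0.24) and with all listed transcripts (0.054); VCAN in endoderm turned with upper-quartile scaling (−0.064) and library totals (−0.29), as did VCAN in ectoderm minus endoderm (0.012 and 0.53). The cause was not tested. Library totals moved the median log2 fold change of all genes to 0.39, −0.46 and 0.24 in ectoderm, endoderm and mesoderm, and to 0.94 for ectoderm minus endoderm; upper-quartile scaling moved them to 0.11, −0.23 and 0.12, and no filter moved the ectoderm one to 0.47. Leaving out libraries, the log2 values that turned ranged from −0.44 to 1.26 (SDC1 in ectoderm), −1.81 to 0.31 (SDC1 in mesoderm), −0.32 to 1.35 (SDC2 in mesoderm), −0.40 to 0.17 and −0.36 to 0.49 (VCAN in ectoderm and endoderm), −0.55 to 0.31 (VCAN, ectoderm minus endoderm) and −1.23 to 0.39 (GPC4, ectoderm minus mesoderm).

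Repeat numbers did not pair the samples (correlations of deviations from −0.03 to 0.15). With the replicate block, 3, 4 and 5 members were called against hPSC; SDC4 in endoderm was lost (edgeR adjusted p = 0.0520), and SDC1 was called between ectoderm and mesoderm (1.11, adjusted p = 0.0441) and between endoderm and mesoderm (−1.61, adjusted p = 0.0290). No alternative called a member's transcript choice. Pathway counts ranged from 28 to 32, 23 to 27 and 27 to 29 over the alternatives run on them. Depth limits BGN, DCN and the VCAN forms.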
